A study of Drosophila melanogaster with 2 samples.

Results

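The genes described here encode subunits of the oxidative phosphorylation machinery (OXPHOS), and each was taken in by its name, though the group itself was picked with earlier results of these data known. They are the protein-coding genes whose symbol begins with ND-, Sdh, UQCR-, COX followed by a digit, or ATPsyn, and the rule found 88 of the 13945 protein-coding genes on the main chromosome arms. Of these, 40 are named for complex I, 8 for complex II, 9 for complex III, 16 for complex IV and 15 for complex V. The names held up with 1 exception: Sdhaf3 is named as an assembly factor of complex II, not as a subunit. A further 24 symbols end in L, with or without a digit, and mark gene copies named as "like" a subunit (ND-MNLL, an ordinary subunit, is not among them). That leaves 63 ordinary subunit genes.

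Complexes I to IV pass electrons from NADH and succinate to oxygen and, except for complex II, pump protons across the inner mitochondrial membrane as they do so. Complex V, the ATP synthase, uses the proton gradient to make ATP. Most subunits are encoded in the nucleus, and the demand for them is high in muscle. In Drosophila, several duplicated genes of this kind are expressed mainly in the testis.

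Chromatin immunoprecipitation followed by sequencing was done on whole embryos of both sexes, pooled, aged 2 to 24 hours. The embryos came from a transgenic line that stably carries org-1, a T-box transcription factor gene active in muscle founder cells, fused at its C-terminal end to GFP, a green fluorescent protein. The 2 libraries are biological replicates 1 and 2 of this 1 group; the antibody is described once as directed against GFP and once as org-1. No second genotype, treatment or time was analysed here, so nothing was compared between conditions, and a whole embryo does not show which cells a peak came from. The authors' optimal list held 4434 peaks with signal values from 101 to 2560 (median 164), and each of their candidate lists (replicate 1, replicate 2, and both pooled) held 30000 regions. The signal is the authors' own value for a peak, and read depth is unknown. Coordinates are in dm6.

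The sequences around 4 of the summits at member starts are shown first, because these are among the peak positions on which the promoter result rests. They are given 5′ to 3′ on the strand of the member gene, from release 6 of the genome as held by RefSeq, at chrX:6679349-6679449 (minus strand, ND-ASHI), chr3R:22027610-22027710 (plus strand, ND-42), chrX:19744336-19744436 (minus strand, COX6B) and chr3R:11819485-11819577 (plus strand, COX5A). Each runs 50 bp to either side of the summit, except that of COX5A, which is shortened at both ends so as to hold no more than 30 exonic bases. Capitals mark a match to TATCGA on either strand, the core of the DNA replication-related element (DRE). No window held AGGTGTG, the core of the T-box motif. Windows of 101 bp at all optimal summits held it in only 0.586%, so its absence from so few windows carries no weight.
ND-ASHI: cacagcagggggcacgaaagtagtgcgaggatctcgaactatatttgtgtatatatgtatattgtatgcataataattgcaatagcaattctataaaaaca
ND-42: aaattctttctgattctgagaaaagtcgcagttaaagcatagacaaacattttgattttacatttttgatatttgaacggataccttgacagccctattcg
COX6B: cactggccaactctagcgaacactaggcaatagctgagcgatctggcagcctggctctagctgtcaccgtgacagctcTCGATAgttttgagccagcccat
COX5A: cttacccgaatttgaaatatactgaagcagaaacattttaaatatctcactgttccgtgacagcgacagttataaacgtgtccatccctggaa
The COX6B window stands apart in base composition, with 55.4% GC, against 34.7% for ND-ASHI, 32.7% for ND-42 and 38.7% for COX5A. Across all 4434 optimal summits, windows of 101 bp held 34.7% GC on average (SD 9.12).

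Few OXPHOS genes carried a summit at their own start. A summit lay within 500 bp of an own transcript start at 5 of the 88 genes (5.68%, exact 95% interval 1.87 to 12.8), where it did so at 13.6% of all protein-coding genes. OXPHOS genes are short, with a median length of 1097 bp. Among the 8505 other genes between 587 and 3580 bp long (the 10th to 90th percentile of the members), 10.3% had a summit at an own start. Intervals here cover the counting of genes only, and members are not replicates of a condition, so the difference was not tested. For other gene lists, a summit lay at an own start of 61 of 92 cytoplasmic ribosomal protein genes (66.3%, 55.7 to 75.8), of 13 of 73 mitochondrial ribosomal protein genes (17.8%, 9.84 to 28.5) and of 3 of 48 proteasome subunit genes (6.25%, 1.31 to 17.2). These differences between lists were not tested either.

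**Figure D1:**
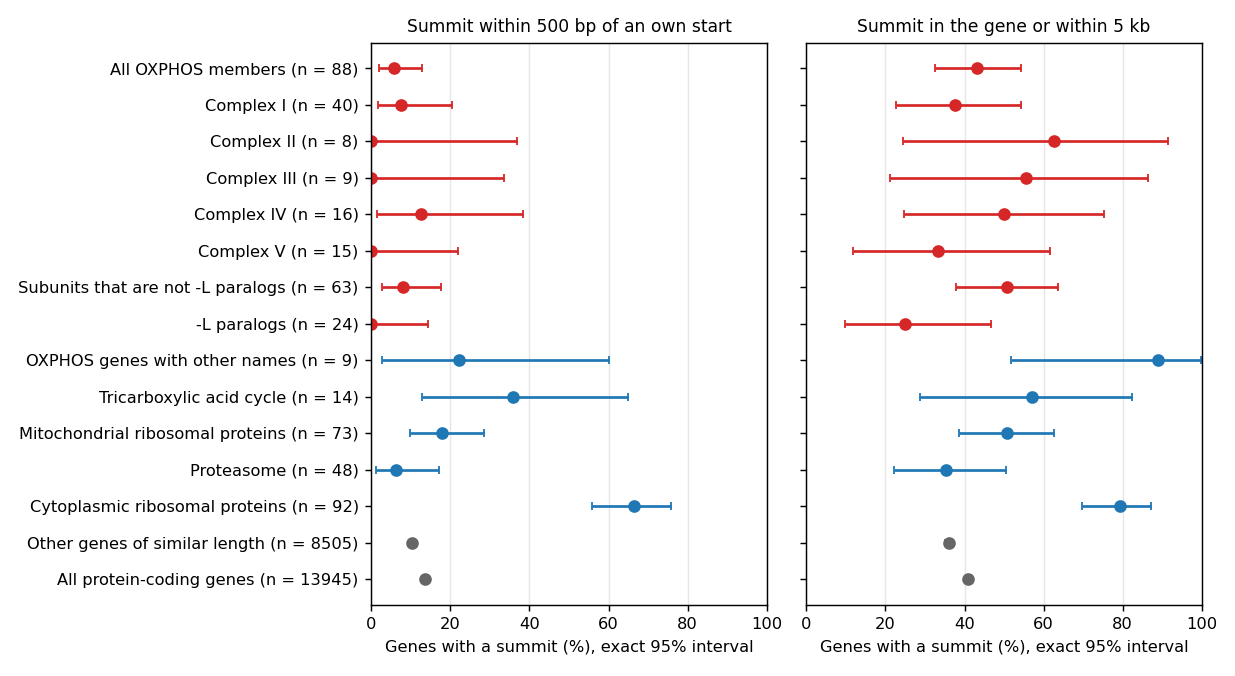
Share of genes (x axis, %) with an optimal summit within 500 bp of an own start (left) or in the gene or within 5 kb (right), for OXPHOS genes and their complexes (red), other gene lists (blue), and background genes (grey); points are shares and bars exact 95% intervals of gene counts. At own starts the OXPHOS genes sit at 5.68% and the cytoplasmic ribosomal protein genes at 66.3%; within 5 kb the OXPHOS genes sit at 43.2%, beside 41% of all genes.

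The 5 summits were at genes of complexes I and IV. Complex I had 3 of 40 (7.5%, 1.57 to 20.4) and complex IV 2 of 16 (12.5%, 1.55 to 38.3). Complexes II, III and V had 0 of 8, 0 of 9 and 0 of 15, counts that allow shares of up to 36.9%, 33.6% and 21.8%. These intervals overlap, and differences between complexes were not tested. All 5 genes were ordinary subunits (5 of 63, 7.94%, 2.63 to 17.6), and none of the 24 copies named as "like" had a summit at an own start, which allows a share of up to 14.2%.

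The strongest of the 5 was at ND-ASHI (FBgn0029888), which encodes an accessory subunit of complex I. Its peak on chromosome X from 6679222 to 6679520 had a signal of 525, rank 293 of the optimal list, and the candidate there reached 264 in replicate 1 and 263 in replicate 2. The replicates gave it nearly the same value. The summit lay 281 bp upstream of an ND-ASHI start and 241 bp upstream of a start of Fum1, the gene of the tricarboxylic acid cycle enzyme fumarase, which is read in the opposite direction.

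ND-MWFE (FBgn0085468), another accessory subunit gene of complex I, had a peak on 2R between 13158422 and 13158562 and a signal of 210, with 98.0 for replicate 1 and 112 for replicate 2. The summit lay 187 bp upstream of ND-MWFE but only 34 bp upstream of the nearest start of TppII, which encodes tripeptidyl-peptidase II. It lay inside the TppII gene, downstream of that gene's outermost start. ND-42 (FBgn0019957), also an accessory subunit gene of complex I, had a peak of signal 200 on 3R between 22027432 and 22027887, with 146 for replicate 1 and 53.7 for replicate 2. Here the member was the nearer gene: the summit lay 49 bp upstream of ND-42 and 180 bp upstream of Cchl, which encodes the lyase that attaches haem to cytochrome c. For ND-42 the 2 replicates differed more than for ND-ASHI and ND-MWFE.

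Both complex IV genes had a candidate at their start in replicate 2 and none in replicate 1. COX6B (FBgn0031066), on X from 19744158 to 19744613, had a signal of 187 in the optimal list and 101 in replicate 2. Its summit lay 51 bp upstream of COX6B and 45 bp upstream of CG33932, and starts of CG18809 and Rpp20 were also within 500 bp. COX5A (FBgn0019624), on 3R from 11819303 to 11819758, had a signal of 108 in the optimal list and 46.2 in replicate 2. Its summit lay 68 bp upstream of the nearer of its own starts, downstream of its outermost start, and 111 bp upstream of glo, which encodes an RNA-binding repressor of translation. COX5A stands close to the lower end of the optimal list, at rank 4031 of 4434. Neither peak region was overlapped by any of the 30000 candidate regions of replicate 1.

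All 5 summits lay between the nearest start of the member and the nearest start of a neighbour, a divergent pair. None can therefore be given to an OXPHOS gene alone. The summits at ND-ASHI, ND-MWFE and COX5A also lay inside an annotated gene (Fum1, TppII and COX5A), which has a further start on the other side. Those at ND-42 and COX6B lay inside no coding gene. The pairs of starts were 96 to 522 bp apart. For 3 of the 5 (ND-ASHI, ND-MWFE and COX6B) the neighbour's start was the nearer one, and only COX5A and ND-42 kept a summit when it counted for the closest gene alone. Of all 1891 genes with a summit at an own start, 47.3% shared it with another coding start within 500 bp, and for 22.6% the other start was nearer. For the 880 genes of similar length with a summit these shares were 64.5% and 32.0%. Among cytoplasmic ribosomal protein genes with a summit, 49.2% shared it, but for 1.64% the other start was nearer. Mitochondrial ribosomal protein genes were more like the OXPHOS genes in this, with 12 of 13 shared and the neighbour nearer for 9.

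**Figure D2:**
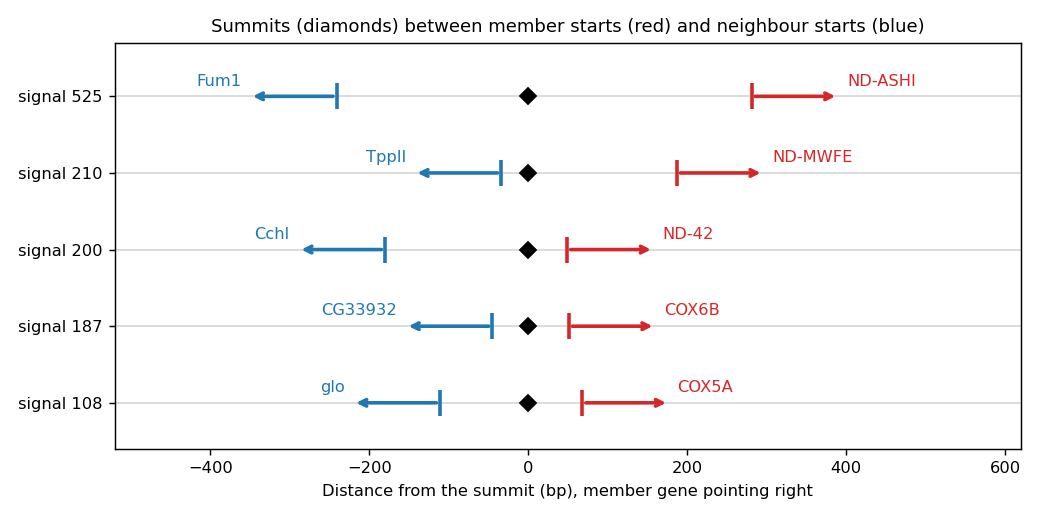
Position of the 5 summits (black diamonds, 0 on the x axis, in bp) between the nearest start of the member (red, pointing right) and the nearest start of its neighbour (blue, pointing left), with the optimal signal at the left. Each summit lies between the starts, and for ND-ASHI, ND-MWFE and COX6B the blue start is the closer.

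Having a close neighbour was common among the members with and without a summit. Another coding start lay within 500 bp of an own start at 41 of the 88 genes (46.6%), against 30.9% of all genes and 31.6% of genes of similar length. Of these 41, 5 had a summit (12.2%), where 22.4% of all such genes did. Of the other 47, 0 had one, where 9.59% of all genes with no close neighbour did. Genes of similar length had 20.1% and 5.81%. Cytoplasmic ribosomal protein genes carried summits in both settings, with 81.1% for genes with a close neighbour and 56.4% for those without. The members' shares were the lower ones in both settings; this was not tested.

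Candidate regions, which include weaker enrichment, lay at OXPHOS starts at a share between those of both backgrounds. In the pooled candidate list, 31 of 88 members had a region with its summit at an own start (35.2%, 25.3 to 46.1), where 39.5% of all genes and 31.4% of genes of similar length had one. The 31 candidates at members had a median pooled signal of 43.3, against 63.8 for genes of similar length and 67.5 for all genes with a candidate. Their median rank was 13358 of 30000, against 7549 for all genes. Cytoplasmic ribosomal protein genes had a candidate at 85.9% of genes and a median of 194. At 43 of the 88 members neither replicate nor the pool had any candidate at an own start, among them SdhA and SdhB, the catalytic subunit genes of complex II, ND-75, a core iron-sulphur subunit gene of complex I, and COX4. No share over all genes is given for this count, so it cannot be read as particular to the members.

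The replicates shared part of these weak candidates. Replicate 1 had one at 29 members (33.0%), where 34.6% of all genes and 27.8% of genes of similar length had one. Replicate 2 had one at 33 members (37.5%), where 43.6% of all genes and 35.7% of genes of similar length had one. These shares are near the background. The median signal in replicate 1 was 33.7 at members, against 41.6 for genes of similar length and 42.8 for all genes. In replicate 2 it was 31.1 at members, against 29.4 for genes of similar length and 34.1 for all genes, so the lower signal at members than at genes of similar length was not seen in that replicate. Of the members, 20 had a candidate in both, 9 in replicate 1 only and 13 in replicate 2 only. This split is not given for all genes, so it only describes the members. Over the 20 genes with a candidate in both, Spearman's rho between replicates was 0.480, and Pearson's r of the log2 signals was 0.71. Both are descriptions over genes of a single pair of libraries. Taking the 4434 strongest regions of 1 replicate in place of the optimal list gave 7 members in each case, but not the same ones. Replicate 1 alone gave ND-ASHI, ND-MWFE, ND-42, ND-SGDH, ND-24, COX8 and ATPsynE. Replicate 2 alone gave ND-ASHI, ND-MWFE, ND-42, COX6B, COX7AL2, ATPsynC and SdhD. The 3 complex I genes ND-ASHI, ND-MWFE and ND-42 were the ones that both gave.

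**Figure D3:**
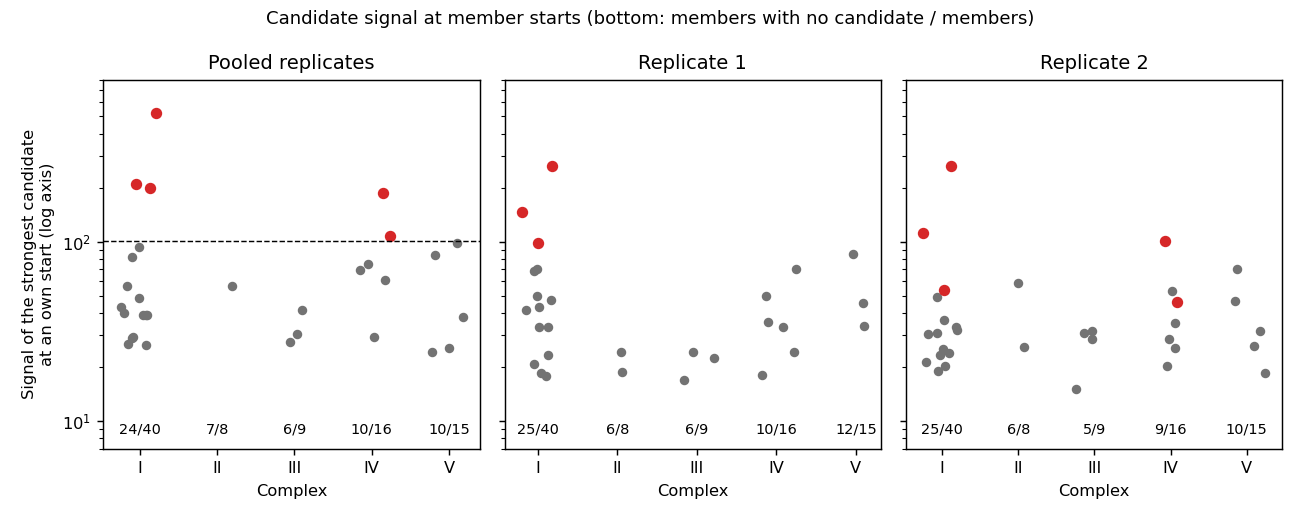
Signal of the strongest candidate region with its summit within 500 bp of an own start (y axis, authors' signal values, log scale) for each member, by complex (x axis), in the pooled list and in each replicate; red points are the 5 members with an optimal peak, the dashed line is the lowest optimal signal (101), and the numbers at the bottom give members with no candidate over all members. Most members have no candidate or one below 101, and the 2 red points of complex IV are absent from replicate 1.

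Just below the optimal list stood members of complexes V, I and IV. ATPsynC, which encodes the subunit of the rotating ring of the ATP synthase, had a pooled signal of 97.8 at an own start, under the lowest optimal value of 101; replicate 2 had 70.3 there and replicate 1 no candidate. ND-51, the gene of the core subunit that binds NADH, had 93.8 (23.4 in replicate 2, none in replicate 1). ATPsynE, for a membrane subunit of the ATP synthase, had 84.3, with 85.4 in replicate 1 and 46.7 in replicate 2. These were mostly supported by 1 replicate more than by the other. ND-B18, for an accessory subunit of complex I, had 82.1 (47.4 and 32.2), and COX7AL2, a copy named after COX7A, had 75.1 (50.02 and 53.1).

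Within 5 kb the members' share was near the background. A summit lay inside the gene or at most 5 kb away at 38 of the 88 members (43.2%, 32.7 to 54.2), where 41% of all genes and 36% of genes of similar length had one. Only 5 of the 38 had it at an own start, and the other 33 had it elsewhere in the window. Of the 5714 such genes among all genes, 1891 had one at an own start. Among genes of similar length, 880 of 3062 did. The windows held 44 distinct summits, of which 35 had their nearest start in another gene. Of the 39 summits away from the member's own starts, 20 lay within 500 bp of a start of a neighbouring coding gene. Over all 44, 25 lay in promoters, 11 in introns, 6 between coding genes, 2 in UTRs and none in coding exons outside promoters. No share over all genes is given for these counts of summits, so they only describe the members. Around the 5′ ends of genes, the members had 4.55 summits per 100 genes in the 500 bp upstream, against 46.7 for cytoplasmic ribosomal protein genes and 8.94 for genes of similar length. In the 500 bp downstream the values were 1.14, 29.3 and 2.00.

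**Figure D4:**
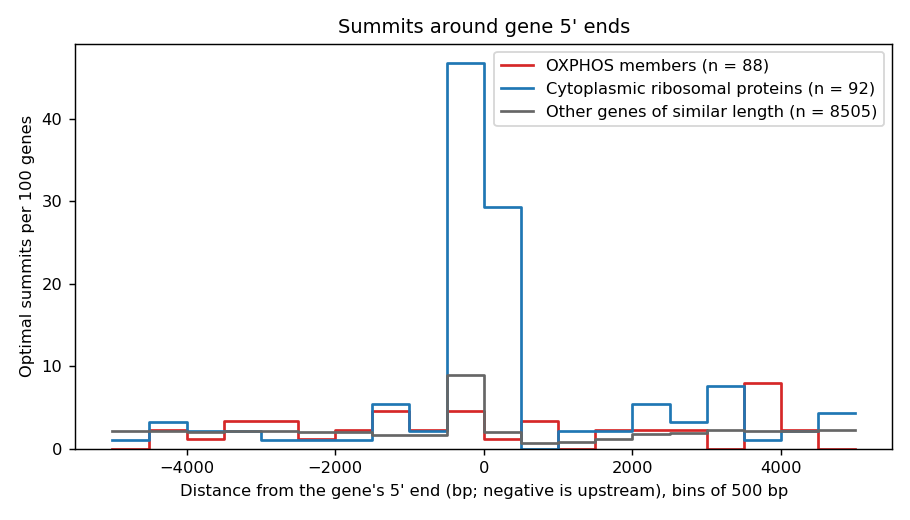
Optimal summits per 100 genes (y axis) in bins of 500 bp around the 5′ end of the gene (x axis, bp, negative is upstream), for OXPHOS genes (red), cytoplasmic ribosomal protein genes (blue) and other genes of similar length (grey). The blue line peaks at 46.7 just upstream of the 5′ end, where the red line is at 4.55 and the grey at 8.94; the red bins count few summits each, the highest 7.

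Most of the strongest peaks in member windows lay at starts of neighbours, except the second strongest, of 933 near COX7AL2, which lay between coding genes. By complex, a summit lay in the window of 15 of 40 complex I genes (37.5%, 22.7 to 54.2) and 5 of 8 complex II genes (62.5%, 24.5 to 91.5). For complexes III, IV and V it was 5 of 9 (55.6%, 21.2 to 86.3), 8 of 16 (50%, 24.7 to 75.3) and 5 of 15 (33.3%, 11.8 to 61.6). Beside these stood 41% of all genes and 36% of genes of similar length. The intervals overlap, and differences between complexes were not tested. The highest signal, 1249 (668 in replicate 1 and 575 in replicate 2), lay 3353 bp upstream of ND-51 and 23 bp from the start of CG9147, where Fbw5 also starts. Both replicates ranked it among their strongest regions, at 36 and 27. The peak of 811 (617 in replicate 1 and 191 in replicate 2) was in the window of SdhD, a membrane anchor gene of complex II. It lay inside Hrd3, 159 bp upstream of the nearest Hrd3 start, and PTPMT1 also starts within 500 bp. That of 626 near ND-B22 lay 9 bp from the start of CG6565. Each of these positions is nearer to a start of the neighbour than to one of the member.

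The same held for complexes III and V. Near UQCR-6.4, a small subunit gene of complex III, a peak of 585 lay 84 bp upstream of POSH and 4136 bp from the UQCR-6.4 start. Near ATPsynC a peak of 419 lay in an intron of CG12054. The summit of 243 near ND-B8 lay 4 bp from the start of the ribosomal protein gene RpL27A. Summits in the windows of the core protein genes UQCR-C1 (125) and UQCR-C2 (101) lay 71 bp from the start of Rrp6 and 86 bp from that of Smn. Of the catalytic core of the ATP synthase, ATPsynbeta had no summit in its window, whereas blw, the gene of the alpha subunit, which the naming rule leaves out, had 2, the stronger of 918.

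COX7AL2 (FBgn0085201), a copy, had the most summits of any member. This gene of 5388 bp on 2L, from 2192525 to 2197912, had 5 summits in its window, and no other member had over 2. The strongest, of 933 (437 in replicate 1 and 492 in replicate 2), lay 4497 bp upstream of COX7AL2, between coding genes. The nearest coding start, that of CG31668, lay 3757 bp away. A summit of 354 lay 1439 bp upstream, one of 262 lay 3396 bp upstream and one of 119 lay 3731 bp downstream. The weakest, of 105, lay in a UTR of COX7AL2 itself, 528 bp from a start, just outside the 500 bp window. Of the 44 summits in member windows, 9 were nearest to a start of a member, and 3 of these 9 were at COX7AL2.

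Copies had summits and weak candidates less often by count. A summit lay in the window of 6 of the 24 copies (25%, 9.77 to 46.7) and of 32 of the 63 ordinary subunit genes (50.8%, 37.9 to 63.6). Beside these stood 41% of all genes and 36% of genes of similar length. The share of 43.2% for all members thus lay between a lower and a higher one. A pooled candidate lay at an own start of 3 of 24 copies (12.5%, 2.66 to 32.4) and of 28 of 63 ordinary genes (44.4%, 31.9 to 57.5). The backgrounds were 39.5% of all genes and 31.4% of genes of similar length. In replicate 2 the counts were 1 of 24 (4.17%) and 32 of 63 (50.8%), beside the 43.6% of all genes. In replicate 1 they were 6 of 24 (25%) and 23 of 63 (36.5%), beside the 34.6% of all genes, so that the ordinary genes were near the background there. The copies were shorter (median 744 bp, against 1178 bp) and had fewer annotated starts per gene (1.17, against 1.57). Neither the difference in counts nor its relation to length and starts was tested. COX5BL and COX5B shared a single summit (465) in their windows, 101 bp inside Trmt6, and COX7CL and COX7C shared one (259) in an intron of oys. Those were the 2 summits shared by a pair of members.

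Of the words searched in promoters, the core of motif 1 had the highest share in OXPHOS genes relative to all promoters. In the 300 bp from 250 bp before to 50 bp after the gene's 5′ end, 16 of 88 members held GGTCACAC, the core of the promoter element called motif 1 (18.2%, against 7.33% of genes of similar length and 7.70% of all promoters). The full DRE palindrome TATCGATA was in 9 (10.2%, against 9.36% of all promoters), all of them ordinary subunit genes, and its core TATCGA in 27 (30.7%, against 27.7%). The palindromes TTACATAA, TTACGTAA and TTATATAA, described in Drosophila as the nuclear respiratory gene element, were counted together and were in 6 members (6.82%, against 5.18%). All words were searched on both strands, the DRE core overlaps the full DRE, and no share was tested. Cytoplasmic ribosomal protein promoters held TATCGATA in 30.4% and GGTCACAC in 15.2%.

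The T-box core AGGTGTG was in the promoters of 4 members, COX5A, ND-PDSW, ND-B15 and UQCR-6.4 (4.55%, against 2.48% of genes of similar length and 2.65% of all promoters). Of these only COX5A had a summit at an own start, and its core lay 346 bp from that summit. Of the 9 members with the full DRE, none had a summit at an own start. Only 5 of all 88 members had one, so a count over 9 genes is too small to read. The T-box cores of ND-PDSW (chr2L:3466112-3466150, plus strand) and COX5A (chr3R:11819166-11819204, plus strand) and the DRE of COX4 (chr2L:19958595-19958634, plus strand), ND-B14.5A (chrX:2172439-2172478, plus strand) and ND-MNLL (chrX:7893988-7894027, minus strand) are shown because none of these words lay under a member's summit. Capitals mark the T-box core on either strand or the DRE.
ND-PDSW: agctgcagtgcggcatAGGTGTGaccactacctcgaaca
COX5A: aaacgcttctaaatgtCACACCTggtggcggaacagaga
COX4: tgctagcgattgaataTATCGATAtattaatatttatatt
ND-B14.5A: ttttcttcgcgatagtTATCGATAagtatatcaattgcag
ND-MNLL: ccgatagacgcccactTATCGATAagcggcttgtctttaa
A word is a match of letters and not a site of binding.

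The other words had these shares. TATAAA was in 55.7% of member promoters, against 45.8% of all promoters, CAGCTG in 23.9% against 17.7%, TAATTA in 23.9% against 20.4% and AGATAAG in 6.82% against 4.60%. GAGAG was in 22.7% against 29.7%, TGTTTAC in 7.95% against 9.19%, TGCGCA in 6.82% against 6.96%, CACGTG in 4.55% against 4.2% and AAGGTCA, a half-site of the kind bound by the nuclear receptor ERR, in 1.14% against 2.11%. Member promoters were poorer in GC, with a mean of 35.04% (SD 6.44), against 37.9% (SD 7.14) for genes of similar length and 39.1% (SD 7.74) for all genes. The part of GC in the word shares was not tested. Within 50 bp of the 5 member summits, TATAAA was found at 3 and TATCGA and GAGAG at 1, COX6B. Across all optimal summits, the same windows held TATAAA in 20.1%, TATCGA in 5.01% and GAGAG in 10.6%. With only 5 member windows, these were not compared.

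Genes of energy metabolism with other names are given beside the members, in small lists and with no test. Of 9 OXPHOS genes outside the naming rule 2 had a summit at an own start (22.2%, 2.81 to 60.01), where 13.6% of all genes did. They were Cyt-c-d (785, with 477 in replicate 1 and 321 in replicate 2), a cytochrome c gene, and blw (260), the gene of the alpha subunit of the ATP synthase. RFeSP and Cyt-c1 of complex III, levy and cype of complex IV, sun, ox and Cyt-c-p had none there. Of 14 genes for the tricarboxylic acid cycle and pyruvate dehydrogenase 5 had one (35.7%, 12.8 to 64.9), led by Fum1 with the peak it shares with ND-ASHI, Idh3g (479) and mAcon1 (198). These 14 genes were longer than the members (median 3402.5 bp, against 1097 bp) and had more starts per gene (2, against 1.45). Their share is therefore not directly comparable with that of the members. Of 5 carriers and channels, only Mpcp1 (107) had one. Of 11 genes for the mitochondrial genome and its regulators 2 had one, mtSSB (274) and ERR (129). At srl, ewg, PolrMT and PolG1 no summit lay within 5 kb. In the larger lists the highest values were 771 at RpL7, 768 at RpS27 and 638 at RpL14 among cytoplasmic ribosomal protein genes, 1288 at mRpS10, 1282 at mRpS23 and 1063 at mRpL41 among mitochondrial ones, and 161 at Rpn5, 132 at Rpn3 and 107 at Rpn13 in the proteasome. The highest value among the 88 genes of the naming rule, 525 at ND-ASHI, was below that of 785 at Cyt-c-d.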

How the data were processed

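Peak lists in dm6 were used as deposited by the authors: for each region a signal value, a −log10 q value (not used for ranking) and a summit offset, per the file layout. Per the deposited file descriptions, candidate regions were derived from the alignment of each library, or of both, together with 1 further file (the labels name a possible control), and the optimal list was thresholded on the irreproducible discovery rate (IDR). The sources used here do not name the aligner or the peak caller, and depth is unknown. Lists in dm3 were not used.

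Gene models came from Ensembl release 115 (BDGP6.54), whose coordinates are those of dm6, and sequence from RefSeq's release 6. A summit (start plus offset) counted at an own start within 500 bp of any transcript start of the gene. Several summits took the strongest. Summits were placed by the starts, exons and gene bodies of protein-coding genes only, so non-coding genes were not considered. Shares carry exact (Clopper-Pearson) 95% intervals; no tests were made, since there is 1 group. The assignment was checked on simulated summits. Python 3.11.15, pandas 2.3.3 and scipy 1.17.1 were used. Genes were named by a rule: members with a summit at an own start, the 5 strongest with a summit elsewhere in the window, the 5 without whose pooled candidate was strongest, copies with their partners, and the top 3 of other lists. Other names were added after their values were seen. The 1 list symbol not in the annotation (Nc73EF) was matched by synonym. Members and lists were chosen with earlier results of these data known.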

Additional observations from a re-analysis of the deposited data

How the results depend on the processing

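The count of 5 members with a summit at an own start became 1 with the 1000 strongest peaks (4.41% of all genes), 12 with 2 times as many pooled candidates (21.9%), 3 with peaks shared by strong regions of each replicate (8.48%), 2 by nearest start (10.8%), 3 within 100 bp (3.94%) and 10 within 1000 bp (16.5%). In each of these settings the members' share was below that of all genes and that of genes of similar length. Against genes of similar length the gap was small within 100 bp (3.41% against 3.49%) and within 1000 bp (11.4% against 12.0%). The count of 38 with a summit within 5 kb became 11 with the 1000 strongest peaks, 25 with shared peaks, 7 by nearest start, 20 within 2 kb and 59 within 10 kb. Its order against all genes changed: 67.05% against 56.2% within 10 kb, but 22.7% against 28.02% within 2 kb and 36.4% against 40.5% without replicate 1. It was also lower with the 1000 strongest peaks (12.5% against 15.0%), with shared peaks (28.4% against 28.9%) and by nearest start (7.95% against 18.04%). Genes of similar length were below the members within 10 kb (52.7%), within 2 kb (20.9%), without replicate 1 (34.9%) and with shared peaks (24.1%). With the 1000 strongest peaks both were at 12.5%, and by nearest start genes of similar length were above the members (10.8%). Without replicate 1 or 2 the counts by complex ran from 3 to 5 (complex I), 0 to 1 (II), 0 to 0 (III), 1 to 2 (IV) and 1 to 1 (V), and both totals at own starts were 7. The other counts stayed within 1.5 times. Words at the 5 summits in place of promoters rest on too few windows to compare. No paired analysis was possible because there is only 1 group. Unknown depth means that weak peaks may be missed.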
